A study of Mus musculus with 16 samples.

Results

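The genes described here encode the subunits of the oxidative phosphorylation complexes, chosen by symbol: protein-coding genes named mt- followed by a gene name, Nduf subunits of the a, b, c, s and v series, Sdha to Sdhd, and genes whose symbols begin with Uqcr, Cox4 to Cox8 or Atp5. The rule found 97 of the 55359 gene identifiers in the count table, carrying 96 symbols because Atp5o has 2 identifiers. Of these, 13 lie on the mitochondrial chromosome and 84 on 19 nuclear chromosomes. Complex I has 36 nuclear and 7 mitochondrial members, complex II has 4 nuclear members, complex III has 8 and 1, complex IV has 18 and 3, and complex V has 18 and 2. Members were placed in a complex by their symbols, so Ndufa4, whose protein sits in complex IV, is counted under complex I, and Cox7a2l, a supercomplex factor, and Atp5s, a factor B-like protein, are counted under complexes IV and V.

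The study treated wild-type CBAF1 female mice, 21 days old, with PT-2385, an inhibitor of the transcription factor HIF-2α (the product of Epas1), and asked what it changes in the ovary at ovulation. PT-2385 was injected intraperitoneally at 7.5 mg/kg every 12 h for 4 days, and control mice received vehicle, 5% DMSO in saline, on the same schedule. All groups, controls included, also received 5 IU PMSG and, 48 h later, 5 IU hCG to bring on ovulation, and organs were taken 13 h after hCG. Stranded polyA libraries were sequenced from ovary and kidney, 4 per organ and treatment, 16 in all, from RNA isolated with a column kit in ovary and with Trizol in kidney, so levels were not tested between organs. Nothing in the labels states that replicate libraries are from different animals. P-values therefore measure only the spread between these samples, which may be technical.

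Oxidative phosphorylation passes electrons from NADH through complex I and from succinate through complex II to ubiquinone, then through complex III and cytochrome c to complex IV, which reduces oxygen. The protons pumped along the way drive ATP synthase, complex V. Complexes I, III, IV and V each hold subunits from both genomes, so their assembly needs transcripts made in the nucleus and in the mitochondrion, while complex II is wholly nuclear. Kidney tubules, above all proximal tubules, are rich in mitochondria, and in the ovary the first step of steroid synthesis takes place in mitochondria. HIF proteins are known to lower oxygen use in hypoxia, in part through isoform switches such as Cox4i1 to Cox4i2 and through Ndufa4l2.

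Assigned read pairs ranged from 12689770 to 43295974 per library. Kidney identity genes summed to 19929 to 22580 CPM (read pairs scaled to a common library total) in the kidney libraries and to 27.7 to 80.6 in ovary, and ovary identity genes to 1312 to 1786 in ovary and 4.10 to 5.88 in kidney, so the organ labels matched their markers. Each library's median Pearson correlation with the others of its organ lay between 0.988 and 0.996. Ovary vehicle 3 stood apart: 6 nuclear noncoding RNAs used as a sign of RNA quality summed to 1367 CPM there and to between 2372 and 3845 CPM in the other 7 ovary libraries. Ovary vehicle 1 held 100.5 CPM of proximal tubule markers against 20.2 to 24.02 CPM in the others. The file name of ovary vehicle 3 carries another number than its label, and that of kidney PT-2385 3 another run code than the rest. The ovary medians, shares and counts of calls are therefore also given without vehicle 3, and the kidney calls with each library left out in turn.

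The 13 mitochondrial mRNAs were not all counted alike, which limits what the table says of 6 of them. Per kb of exon, 7 were abundant in vehicle kidney, from 5183 CPM for mt-Nd5 to 22767 for mt-Co1, a catalytic subunit of complex IV. Averaged over all 8 libraries of an organ, the other 6, mt-Co2, mt-Co3, mt-Atp6, mt-Atp8, mt-Nd3 and mt-Nd4l, were 132-fold (mt-Co2) to 726-fold (mt-Nd3) lower per kb than mt-Co1 in kidney, and 153-fold (mt-Atp6) to 1290-fold (mt-Nd3) lower in ovary. These genes are read from the same long precursor RNAs as their neighbours. Of all 100-base stretches in their annotated transcripts, 97.6% to 99.85% for mt-Co2, mt-Co3, mt-Atp6, mt-Nd3 and mt-Nd4l occurred also in an annotated pseudogene on a nuclear chromosome, against 0% to 60.8% for the 7 abundant ones. The nuclear copies themselves took few pairs, for example a median of 2043 per kidney library for Gm28661, the copy of mt-Co2, against 3100 for mt-Co2. For mt-Atp8 no such stretch was shared with another annotated gene, though 21.1% of its exon bases overlap mt-Atp6. The header records no option for reads that match several places, and what became of those reads was not tested. The first 100 bases of mt-Co2, shown because every one lies in both genes, are identical in mt-Co2 and Gm28661 (GENCODE transcripts), whereas the first 100 bases of mt-Co1 occur in no other annotated transcript.
mt-Co2 bases 1 to 100: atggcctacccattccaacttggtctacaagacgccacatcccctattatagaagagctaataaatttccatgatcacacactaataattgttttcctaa
mt-Co1 bases 1 to 100: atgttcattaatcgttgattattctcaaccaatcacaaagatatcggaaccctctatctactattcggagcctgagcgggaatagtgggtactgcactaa
The 7 abundant genes are therefore described on their own as well; that grouping was made after their values were seen. Counting was not limited to 1 strand per the header, so reads from mt-Nd6, which is encoded on the opposite strand to the other 12, cannot be told apart from reads of the other strand there.

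**Figure D1:**
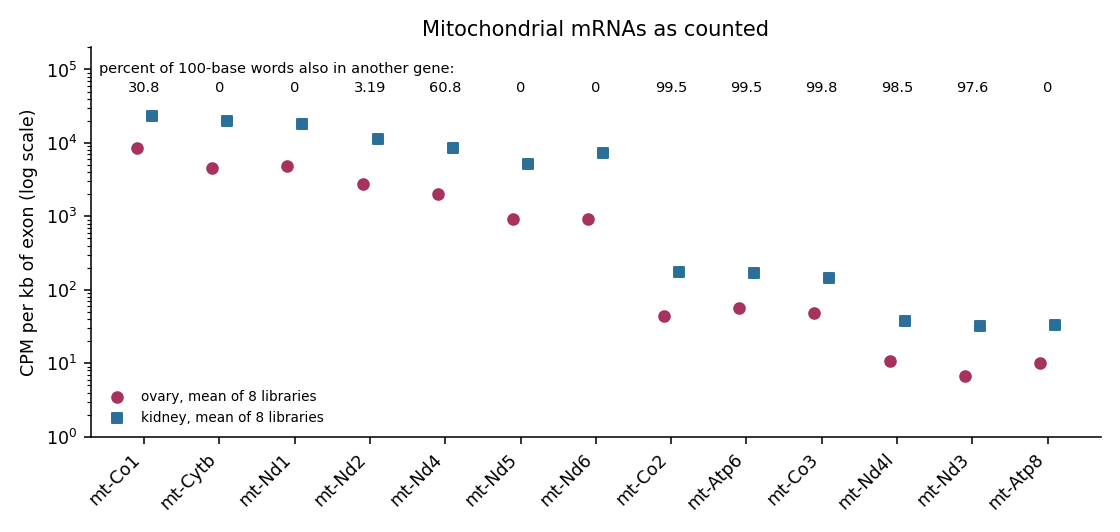
Level of each of the 13 mitochondrial mRNAs, as the mean of the 8 libraries of ovary and of kidney in CPM per kb of exon on a log axis, beside the share of its 100-base words found in another annotated gene. The 6 low genes lie at least 132-fold below mt-Co1 in kidney, and 5 of them share 97.6% or more of their words.

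Mitochondrial mRNAs took a larger share of the kidney libraries with PT-2385 than with vehicle, and no clear change was seen in ovary. Their share of assigned pairs was 9.77%, 10.7%, 11.4% and 11.3% in vehicle kidney 1 to 4 (10.8% ± 0.751, SD, n = 4) and 11.8%, 11.5%, 12.3% and 11.9% in PT-2385 kidney (11.9% ± 0.345, SD, n = 4). Every PT-2385 library lay above every vehicle library, by a margin of 11.46% against 11.42% at the nearest pair. The difference of means was 1.09 percentage points, and 0.753 to 1.31 when any 1 library was left out. In ovary the share was 3.38%, 4.23%, 2.22% and 3.19% with vehicle (3.26% ± 0.827, SD, n = 4) and 3.397%, 2.97%, 2.75% and 2.85% with PT-2385 (2.99% ± 0.286, SD, n = 4). The difference of means was -0.264 percentage points, -0.610 without vehicle 3 and 0.0609 without vehicle 2. The ovary groups overlapped, and the vehicle libraries spanned a wider range than the treated ones. The 84 nuclear members together took 1.92% ± 0.0926 of vehicle kidney pairs and 2.01% ± 0.0409 of PT-2385 kidney pairs, and in ovary 0.778% ± 0.0416 and 0.758% ± 0.0310 (SD, n = 4 each). In bulk tissue, fewer cells of a type and less RNA per cell cannot be told apart, and this holds for every value that follows.

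**Figure D2:**
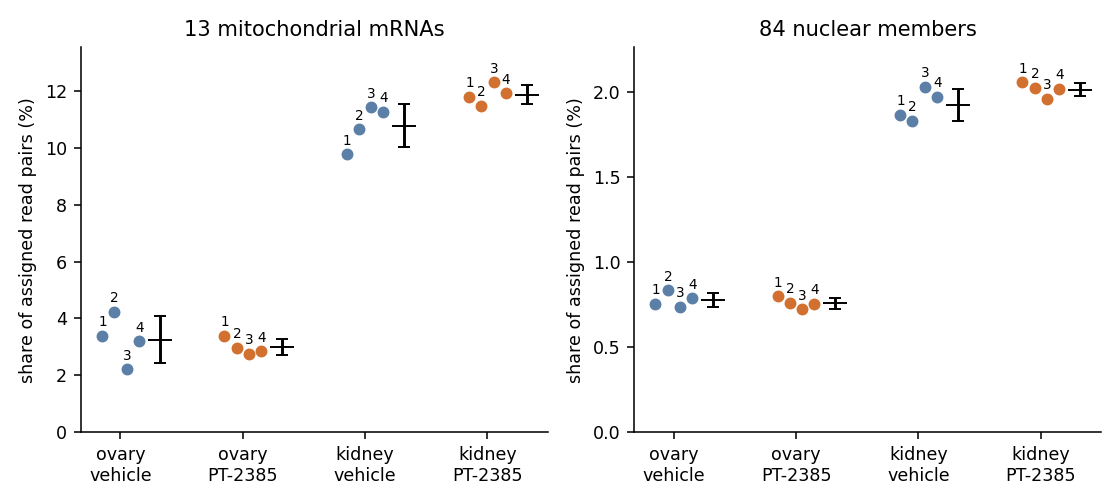
Share of assigned read pairs (%) on the 13 mitochondrial mRNAs and on the 84 nuclear members, 1 point per library numbered by replicate, with the mean and SD of each group at its right. The 4 PT-2385 kidney points of the mitochondrial share, 11.5% to 12.3%, lie above the 4 vehicle points, 9.77% to 11.4%, while the ovary groups overlap.

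Among nuclear members, the genes with the highest levels per kb of exon belong to complexes IV and V. In vehicle kidney, Atp5b, the catalytic β subunit of ATP synthase, stood highest at 1223 ± 39.9 CPM per kb (SD, n = 4). Next came Cox4i1, the common isoform of complex IV subunit 4, at 776 ± 52.5, and Atp5g3, 1 of 3 genes for the same mature subunit c of the ATP synthase rotor, at 744 ± 44.997. In vehicle ovary Atp5b again led at 430 ± 35.5, followed by Cox6a1 at 344 ± 39.4 and Cox4i1 at 319 ± 30.3. The SDs of Cox6a1 and Cox4i1 in ovary overlap, as do those of Cox4i1 and Atp5g3 in kidney, so neither pair has a clear order. In the remaining complexes the most abundant nuclear members of kidney were Ndufa4 at 479, Uqcrh, the hinge protein of complex III, at 456, and Sdhb, the iron-sulfur subunit of complex II, at 264 CPM per kb. Ovary had the same leaders, Ndufa4 at 251 and Uqcrh at 235, except that Sdha at 79.5 ± 5.52 stood above Sdhb at 65.5 ± 5.35.

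The lowest tested nuclear member of each complex was Ndufb2 in complex I (3.30 CPM per kb in kidney and 1.34 in ovary), Sdhc in complex II (88.2 and 24.5), Uqcrq in complex III (92.2 and 51.0), Cox6a2 in complex IV (1.80 and 0.749) and Atp5s in complex V (9.96 and 2.90). These levels divide by all annotated exon bases of a gene, so a long gene model lowers them. In undivided CPM of vehicle kidney, Uqcrq at 168.5 stood above Uqcr10 at 163.6, and Sdhc at 279.8 above Sdhd at 221.1. Under 10 pairs in every library were counted for 3 members: Cox7b2 and Cox8c, both known as testis isoforms, and the second Atp5o identifier, which was listed at 0. The isoforms known from muscle, lung or testis stood far under the common ones in vehicle kidney, on the CPM per kb scale at 2.16 for Cox4i2 against 776 for Cox4i1, 1.80 for Cox6a2 against 742 for Cox6a1, 14.9 for Cox7a1 against 260 for Cox7a2 and 6.97 for Cox8b against 728 for Cox8a. In ovary Cox8b had at most 4 pairs in any library. The 3 subunit c genes also differed in level, with Atp5g3 at 744, Atp5g2 at 113 and Atp5g1 at 51.7 CPM per kb in vehicle kidney and at 300, 80.8 and 12.5 in ovary. For Atp5g1 and Atp5g2 that order rests on exon lengths of 4912 and 731 bases. Undivided, they were at 253.8 and 82.7 CPM in vehicle kidney. In vehicle ovary they were at 61.3 and 59.1 CPM, with overlapping SDs. Atp5g2 shares 34.7% of its 100-base stretches with other annotated genes, pseudogenes among them.

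In kidney, 6 of the 94 members tested differed between PT-2385 and vehicle at an adjusted p under 0.05, 5 higher and 1 lower. The 5 that rose encode small accessory subunits, Uqcrb of complex III, Ndufc1, Ndufa3 and Ndufb4 of complex I and the muscle isoform Cox6a2 of complex IV, and the 1 that fell is Sdha, the flavoprotein that oxidises succinate. The fold change was 1.94 for Cox6a2, 1.19 to 1.21 for the other higher members and 0.894 for Sdha. Of all 17763 genes tested in kidney, 1.83% were called higher and 3.7% lower. Thus 5 of 94 members stood against 1.83% for higher calls, and 1 of 94 against 3.7% for lower calls. No mitochondrial mRNA passed, and 4 of the 13 had an unadjusted p under 0.05.

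Uqcrb (GRCm39 chr13:67048681-67053442) encodes a small complex III subunit that helps bind ubiquinone. Its scaled CPM were 171.4, 179.8, 207.8 and 204.7 in vehicle kidney 1 to 4 and 237.2, 221.5, 226.7 and 223.7 in PT-2385 kidney. All treated libraries were above all vehicle libraries, and vehicle 1 and 2 were the lowest. The log2 fold change was 0.25 ± 0.060 (SE), with an adjusted p of 0.0246 by edgeR's quasi-likelihood test. Ndufc1 (chr3:51312098-51316409), an accessory subunit in the membrane arm of complex I, had 54.6, 53.6, 64.4 and 65.2 CPM with vehicle against 76.0, 72.7, 68.0 and 71.0 with PT-2385. Again the groups did not overlap, and the change was 0.27 ± 0.066 on the log2 scale (adjusted p = 0.0271). Ndufb4 (chr16:37467532-37474815), also a membrane arm subunit, had 69.8, 68.4, 87.2 and 81.5 CPM with vehicle against 95.1, 86.7, 91.0 and 94.2 with PT-2385, where vehicle 3 lay within the treated range. Its log2 fold change was 0.26 ± 0.070 (adjusted p = 0.0421). Ndufa3 (chr7:3620372-3623326) gave 71.1, 69.9, 81.4 and 86.5 CPM against 99.4, 96.3, 86.5 and 88.4, with no overlap but with vehicle 4 and PT-2385 3 nearly level. Its change was 0.26 ± 0.069 (adjusted p = 0.0407).

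Sdha (chr13:74470373-74498399) moved the other way. Its CPM were 708.9, 689.9, 677.8 and 668.5 with vehicle against 620.9, 630.0, 589.9 and 613.9 with PT-2385, so every treated library was below every vehicle library. The log2 fold change was -0.16 ± 0.044 (adjusted p = 0.0440). Its partner subunits in complex II were not called, and the median over the 4 complex II genes was 0.03. The α and β subunits of ATP synthase, Atp5a1 and Atp5b, also had non-overlapping groups with lower PT-2385 values without passing the test. Atp5b was 2458, 2300, 2317 and 2301 CPM with vehicle against 2146, 2236, 2078 and 2130 with PT-2385, a log2 difference of -0.13 ± 0.048 (adjusted p = 0.124). For Atp5a1 the difference was -0.12 ± 0.046 (adjusted p = 0.122). Over all members, groups did not overlap for 8 of 94, 5 with PT-2385 higher (Uqcrb, Ndufc1, Ndufa3, Ndufb3 and Atp5j2) and 3 lower (Sdha, Atp5a1 and Atp5b), where 13.3% of all genes tested had such groups. These members were named after their values were seen.

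**Figure D3:**
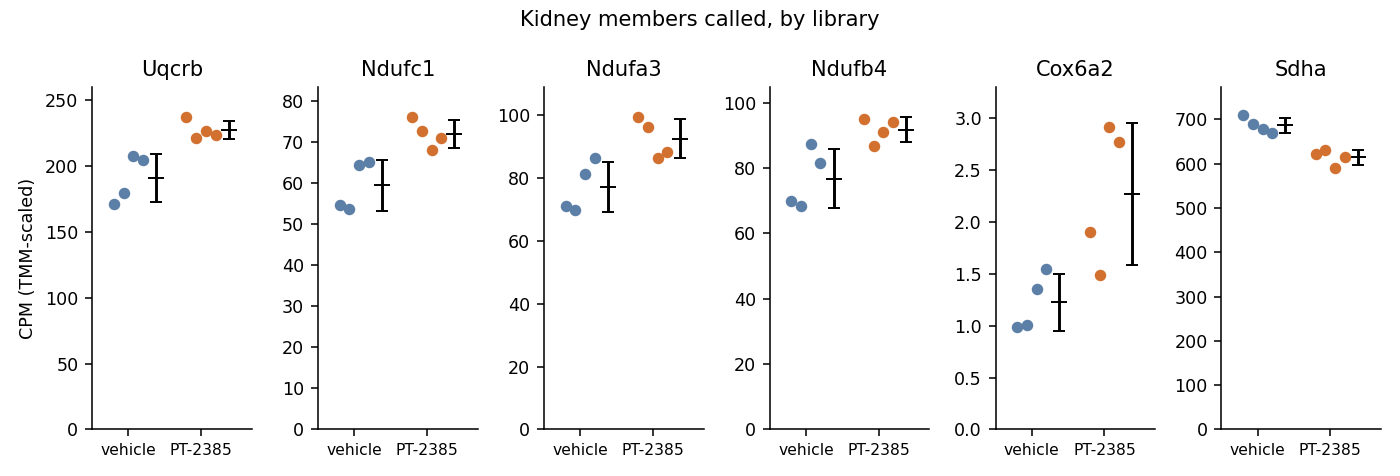
Scaled CPM of the 6 called members in each kidney library, vehicle 1 to 4 and PT-2385 1 to 4, on a linear axis for each gene. Uqcrb, Ndufc1, Ndufa3 and Sdha have groups that do not overlap, Cox6a2 and Ndufb4 have groups that do, and vehicle 1 and 2 are the lowest libraries for the 4 complex I and III genes.

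The 6 calls depended on which kidney libraries were in the fit. With 1 of the 8 libraries left out, the number of members called ran from 0 to 29: 3 without vehicle 1, 0 without vehicle 2, 29 without vehicle 3, 7 without vehicle 4, and 1, 4, 0 and 0 without PT-2385 1, 2, 3 and 4. Calls over all genes, 982 in the main fit, moved as well. They numbered 920, 269, 1370 and 990 without vehicle 1 to 4, and 531, 1061, 240 and 287 without PT-2385 1 to 4. Of these 8 fits, Cox6a2 was called in 5, Uqcrb and Ndufc1 in 4, Ndufb4 in 3, Ndufa3 in 2 and Sdha in 1, all with the sign of their difference kept. The number of members called was 11 by DESeq2, 30 with no filter on low counts and 0 when all 16 libraries were fitted together. Over all genes these fits called 1455, 1761 and 286. DESeq2 gave no adjusted p for Cox6a2 (NA) and added Atp5a1 and Atp5b lower and Atp5j2, mt-Nd2, Ndufb10 and Ndufb3 higher. Vehicle kidney 1 and 2 were the lowest pair of the 8 libraries for 65 of 94 members (69.1%) and for 61 of the 81 nuclear ones (75.3%), a pattern seen in 1998 of 17763 genes (11.2%). Deviations were taken from each member's mean over the vehicle kidney libraries. For the median nuclear member they were -0.09, -0.10, 0.13 and 0.06 (log2) in vehicle 1 to 4. In PT-2385 1 to 4 they were 0.17, 0.12, 0.09 and 0.12. Vehicle 3 thus sat as high as the treated libraries.

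Promoter sequence was at hand for 66 nuclear member genes (67 of 84 identifiers matched, RefSeq, GRCm38.p6, 250 bases before to 50 after the start). A gene was counted if any of its promoters held the word on either strand. The word of the respiratory factor NRF1 (GCGCA, any base, then GCGC) occurred in 17 of the 66 (25.8%) against 5.19% of 27025 genes. Those 27025 are all genes with a promoter entry, not matched to the members in gene type, expression or base composition. No searched word contains another. AAGATGGCG, the word of YY1, occurred in 10.6% against 1.64%, CCGGAAGT, of the ETS factors that include GABPA, in 7.58% against 4.31%, and TCAAGGTCA, of the estrogen-related receptors, in 3.03% against 0.466%. ACGTG, the core of HIF sites, was found for 24.2% of member genes and 21.8% of all genes. Of the called kidney members, 4 had an entry. Their promoters are shown, since they are the members that moved, 5′ to 3′ on the gene's strand with the words found in capitals: NRF1 3 times in Ndufb4 and 3 times in Sdha, which also has ACGTG, YY1 in Ndufc1, and ACGTG read on the other strand in Ndufa3. NRF1 words were thus found in 1 member that rose, Ndufb4, and in the 1 that fell, and a match describes the letters only.
Ndufb4, chr16:37654319-37654618, minus strand: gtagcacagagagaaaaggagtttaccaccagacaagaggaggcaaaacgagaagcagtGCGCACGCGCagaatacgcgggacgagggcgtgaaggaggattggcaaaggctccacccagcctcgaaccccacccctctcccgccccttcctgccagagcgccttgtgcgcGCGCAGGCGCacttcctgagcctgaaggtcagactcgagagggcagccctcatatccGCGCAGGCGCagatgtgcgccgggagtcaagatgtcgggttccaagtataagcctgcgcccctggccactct
Sdha, chr13:74350191-74350490, minus strand: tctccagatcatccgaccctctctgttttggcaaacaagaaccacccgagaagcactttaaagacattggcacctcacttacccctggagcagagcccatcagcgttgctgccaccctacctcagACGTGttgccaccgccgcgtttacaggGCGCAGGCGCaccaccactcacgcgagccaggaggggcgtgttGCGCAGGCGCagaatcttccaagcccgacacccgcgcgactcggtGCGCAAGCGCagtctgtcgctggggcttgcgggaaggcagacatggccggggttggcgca
Ndufc1, chr3:51408906-51409205, minus strand: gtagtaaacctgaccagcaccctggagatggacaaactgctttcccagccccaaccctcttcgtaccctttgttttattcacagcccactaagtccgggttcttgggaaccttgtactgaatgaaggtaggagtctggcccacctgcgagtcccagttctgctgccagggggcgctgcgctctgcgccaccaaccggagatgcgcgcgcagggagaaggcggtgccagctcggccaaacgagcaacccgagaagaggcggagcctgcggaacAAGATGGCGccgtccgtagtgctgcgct
Ndufa3, chr7:3617123-3617422, plus strand: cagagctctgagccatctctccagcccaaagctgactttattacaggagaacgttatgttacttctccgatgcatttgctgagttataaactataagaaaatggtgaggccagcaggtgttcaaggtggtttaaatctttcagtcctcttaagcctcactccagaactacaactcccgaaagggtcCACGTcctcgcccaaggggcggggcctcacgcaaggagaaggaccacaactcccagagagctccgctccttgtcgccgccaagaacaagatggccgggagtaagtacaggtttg

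Most of the other kidney members were a little above vehicle. Of the 94 tested, 79 had a positive log2 difference, with a median of 0.12, against 51.5% of all genes and a median of 0.01. At an unadjusted p under 0.05, 38 of the 94 members were higher and 3 lower, and of all 17763 genes 1906 were higher and 2195 lower. Since members are read from the same 8 libraries and vary together, their number is no count of independent observations. By complex, 31 of 36 nuclear complex I members were positive (median 0.14), 6 of 8 in complex III (0.14), 14 of 16 in complex IV (0.16), 13 of 17 in complex V (0.10) and 3 of 4 in complex II (0.03). The median over nuclear members was 0.13, and 0.09 to 0.17 with 1 library left out.

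Among mitochondrial mRNAs in kidney, 12 of 13 were positive, with a median log2 difference of 0.09 that ran from 0.01 (without vehicle 1) to 0.14 (without PT-2385 1). The largest was that of mt-Nd2, a complex I core subunit, with 9466, 10571, 11982 and 12039 CPM with vehicle against 12634, 11984, 13262 and 13029 with PT-2385, where vehicle 4 lay inside the treated range and vehicle 3 just under it. Its difference was 0.21 ± 0.072 (adjusted p = 0.0949). Those of mt-Nd1, mt-Nd4 and mt-Cytb, the cytochrome b of complex III, were 0.16 ± 0.068, 0.17 ± 0.075 and 0.16 ± 0.070 (adjusted p = 0.171, 0.194 and 0.175). The abundant mt-Co1 was at 35175 ± 1531 CPM with vehicle and 36932 ± 2305 with PT-2385 (SD, n = 4), a difference of 0.07 ± 0.061, and mt-Nd5 and mt-Nd6 were at -0.02 and 0.01. Of the 7 abundant mRNAs, those of mt-Nd1, mt-Nd2, mt-Nd4 and mt-Cytb were thus nearest to the threshold, and in vehicle 1 each of these had its lowest value.

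**Figure D4:**
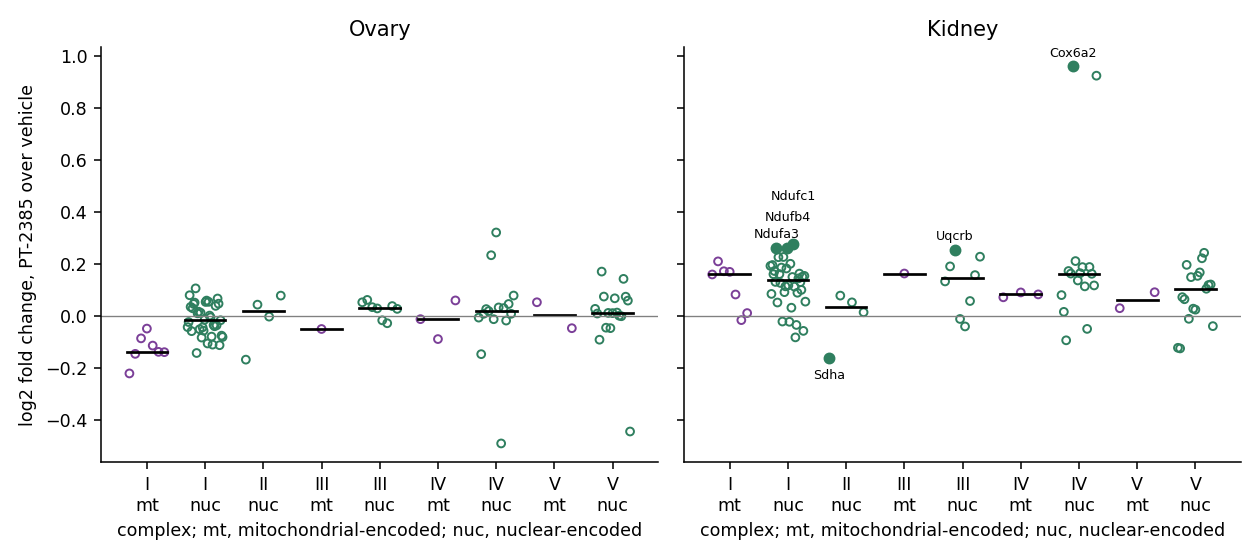
Log2 fold change, PT-2385 over vehicle, of each member tested in ovary and kidney, by complex and genome, with filled points for the called members, open points for the rest and bars at the medians. In kidney the nuclear medians lie between 0.03 and 0.16, and in ovary the points scatter about 0 with none called.

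The kidney differences varied with gene length. Across the 81 nuclear members tested, the log2 difference had a Spearman correlation of -0.48 with exon length and -0.38 with vehicle level. These points share their 8 libraries, and how length and level go with each other was not measured, so the correlations describe the set only. Across all 17763 genes the correlation with length was -0.18. Members of up to 750 bases had a median of 0.16 (27 of 29 positive) where all genes of that length had 0.09 (64.1% positive). In the next 2 length classes, up to 2000 bases, members had 0.16 (25 of 26) and then 0.06 (9 of 17), where all genes had 0.08 and 0.04. From 2000 to 3500 bases it was 0.03 (4 of 7) against 0.01. The 2 members above 3500 bases, Ndufb2 (4375) and Atp5g1 (4912), were both positive (median 0.13), where genes of that length had -0.03. These lengths take in all annotated exons of a gene and need not be those of its mRNA, so these 2 say little about long transcripts. Protein-coding genes alone had medians of 0.13 up to 750 bases and 0.09 in the next class. Short genes of all kinds thus also lay above 0. Up to 750 bases the protein-coding ones were near the members, but the 29 members are themselves among those 244 genes. The nuclear members have a median exon length of 891.5 bases (360 to 4912), while Sdha has 2900. In kidney the 6 nuclear noncoding RNAs summed to 3175 to 3459 CPM with vehicle and 3575 to 3713 with PT-2385, without overlap, and their part in these results was not tested. In ovary the correlation of difference with length was -0.29 over 80 members.

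**Figure D5:**
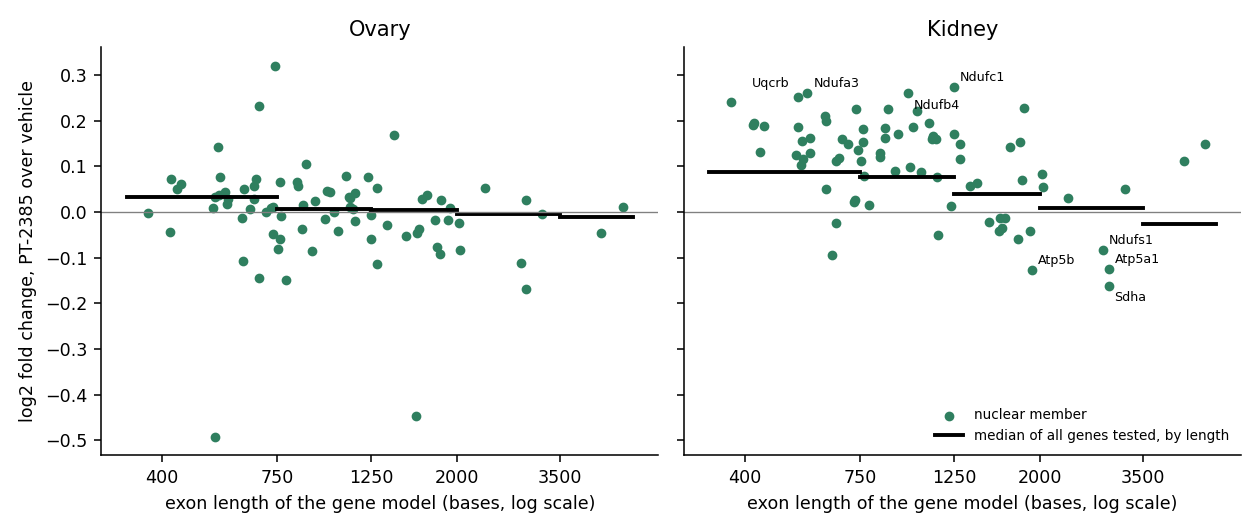
Log2 fold change of nuclear members against exon length (bases, log axis) in ovary and kidney, with steps at the median of all genes tested in the same length class; Cox6a2 and Cox8b in kidney lie above the plotted range and are left out. In kidney both the members and the steps fall with length, from 0.16 and 0.09 up to 750 bases to 0.03 and 0.01 between 2000 and 3500.

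Cox6a2 and Cox8b, isoforms known from heart and skeletal muscle and, for Cox8b, brown fat, had the largest kidney differences, at low levels. Cox6a2 (chr7:127804607-127805559) was at 0.990, 1.01, 1.36 and 1.54 CPM with vehicle against 1.90, 1.49, 2.91 and 2.77 with PT-2385, a log2 fold change of 0.96 ± 0.224 (adjusted p = 0.0227). Those values rest on 26, 27, 31 and 41 pairs and on 44, 19, 127 and 74 pairs, and PT-2385 2 lay within the vehicle range. Cox8b was at 2.40, 2.05, 2.06 and 3.54 CPM with vehicle against 11.5, 4.87, 1.49 and 2.21 with PT-2385, so PT-2385 1 and 2 were high and PT-2385 3 and 4 were not. Its difference was 0.92 ± 0.726 (adjusted p = 0.513), and -0.01 without PT-2385 1.

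A list of adipose and brown fat markers had its highest sums in the libraries in which Cox8b was high. The 6 genes of that list summed to 28.2, 53.2, 42.4 and 63.6 CPM in vehicle kidney and 157, 92.6, 28.5 and 40.4 with PT-2385. Ucp1, the uncoupling protein that defines brown fat, was at 7.29, 12.65, 11.4 and 21.1 CPM with vehicle against 70.9, 32.3, 8.78 and 10.1 with PT-2385. Cox6a2 did not rank the libraries that way, being highest in PT-2385 3. The 6 muscle markers summed to 3.46 to 5.52 CPM over the kidney libraries, with Myh4 at 0 in all of them and Ckm at no more than 0.08 CPM. The part of fat tissue, brown or other, in these results was not tested. Cox7a1, the other muscle isoform, was not called in kidney (0.19 on the log2 scale), nor was Cox4i2 (1.7015 ± 0.366 CPM with vehicle and 1.69 ± 0.260 with PT-2385, SD, n = 4).

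In ovary no member changed by the test. Of 93 members tested, 0 were called in either direction by edgeR or by DESeq2. Of all 18125 genes, edgeR called 0.00552% higher and 0.0441% lower, and DESeq2 called 124 genes higher and 200 lower. Counted at an unadjusted p under 0.05, there were 4 members: Cox6b2 higher, and Sdha, Atp5s and Cox7a1 lower. That is a smaller share than in all 18125 genes, of which 1041 were higher and 1351 lower at that p. Without vehicle 3 these 4 members kept their direction and were not called. Cox6b2, known as a testis isoform, was at 4.85, 4.53, 3.91 and 4.21 CPM with vehicle against 6.08, 5.55, 5.17 and 5.11 with PT-2385, with no overlap (0.32 ± 0.126, adjusted p = 0.321). Cox7a1 was at 1.26, 1.96, 1.24 and 1.696 CPM with vehicle against 1.24, 1.12, 0.969 and 1.07 with PT-2385, the lowest vehicle and the highest treated library being nearly level (-0.49 ± 0.220, adjusted p = 0.367). Sdha was 231 ± 16.01 CPM with vehicle and 205 ± 7.23 with PT-2385 (SD, n = 4), with 1 treated library inside the vehicle range (-0.17 ± 0.069, adjusted p = 0.330). Atp5s, at 4.63 ± 0.956 and 3.38 ± 0.763 CPM, had PT-2385 2 at 4.51 inside the vehicle range (-0.45 ± 0.188, adjusted p = 0.342). Groups did not overlap for 4 of 93 members, Ndufa5, Atp5h and Cox6b2 higher and Cox7a1 lower, against 6.95% of all genes.

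The median log2 difference in ovary was 0.01 over the 80 nuclear members (44 positive), or -0.03 without vehicle 3 (30 positive), and -0.09 over the 13 mitochondrial mRNAs (2 positive). The 7 abundant mitochondrial mRNAs were all lower with PT-2385 (median -0.14), from -0.01 ± 0.142 for mt-Co1 to -0.22 ± 0.210 for mt-Nd1, with adjusted p from 0.685 to 0.979. Vehicle libraries carried that spread. From their mean over the vehicle ovary libraries, the 7 mRNAs deviated by a median of 0.05, 0.43, -0.43 and 0.00 in vehicle 1 to 4. With PT-2385 the deviations were 0.15, -0.06, -0.16 and -0.17. For mt-Nd2 the CPM were 2937, 4214, 1888 and 2968 with vehicle against 3045, 2648, 2577 and 2572 with PT-2385. The median of all 13 was -0.21 without vehicle 3 and 0.09 without vehicle 2, so its sign turned with vehicle 2 and no other single library. Without vehicle 3, Atp5d, the δ subunit of ATP synthase, was the 1 member called (0.28, adjusted p = 0.0242), at 123, 122, 165 and 132 CPM with vehicle against 158, 146, 154 and 151 with PT-2385, and 1090 genes were called in all. Vehicle 2 had the highest sum of luteal and steroidogenic markers in ovary, 21366 CPM, and vehicle 3 the lowest, 12996, and their part in these differences was not tested.

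Whether the organs differ in their response was tested directly over the 16 libraries. No member of 94 was called, where 0.19% of all 19977 genes were called in either direction. At an unadjusted p under 0.05 there were 8 of the 94 members and 2397 of the 19977 genes, a lower share among members. Of the 94 members, 76 had a lower response in ovary than in kidney, against 10207 of all 19977 genes. The median difference was -0.11, with -0.16 over the mitochondrial and -0.10 over the nuclear members, against -0.01 over all genes. The smallest adjusted p was that of Cox7a1, 0.302, with a difference of -0.67 ± 0.256 between log2 changes of -0.49 in ovary and 0.19 in kidney. The others named by the smallest p belong to complex I: Ndufb7 (-0.29 ± 0.115), Ndufb3 (-0.22 ± 0.089), Ndufa6 (-0.28 ± 0.122), Ndufa13 (-0.21 ± 0.096) and Ndufs8, which carries iron-sulfur clusters (-0.24 ± 0.104), with adjusted p from 0.319 to 0.387. Ndufa13 shares 29.98% of its exon bases with Tssk6 on the opposite strand, so reads of the 2 genes cannot be told apart there. Without ovary vehicle 3, 1 member was called, Atp5a1. Without ovary vehicle 2, 32 members had a higher response in ovary than in kidney, where 18 did with all libraries. The median difference was then 0.01 over the mitochondrial members, its sign turned, and -0.06 over the nuclear ones.

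Genes that build and regulate these complexes changed in kidney in small numbers, to be read against the 1.83% of all genes called higher and 3.7% called lower. Of 46 assembly factors tested, 3 rose and 1 fell. Cox17, which carries copper to complex IV, was at 7.34 ± 0.756 CPM with vehicle and 10.7 ± 0.793 with PT-2385 (0.55 ± 0.096, adjusted p = 0.00540), and stayed called with any 1 library left out. Uqcc2, a complex III assembly factor, was at 23.0 ± 2.64 and 28.4 ± 2.06 CPM (0.31, adjusted p = 0.0351), and Ndufaf4, of complex I, at 49.5 ± 3.72 and 59.9 ± 6.30 (0.28, adjusted p = 0.0341). Acad9, which works in complex I assembly and fatty acid oxidation, fell from 51.0 ± 5.71 to 40.2 ± 1.46 CPM (-0.34, adjusted p = 0.0123; SDs with n = 4 throughout). Of the 8 fits that each left out 1 library, Acad9 was called in 6, Uqcc2 in 3 and Ndufaf4 in 2. Of 15 biogenesis regulators only Ppara, the lipid-sensing nuclear receptor, was called, with 36.4, 35.1, 27.6 and 31.5 CPM with vehicle against 22.6, 26.4, 21.2 and 22.4 with PT-2385 (-0.53 ± 0.085, adjusted p = 0.00467). It was lower in every treated library and called in each of the 8 fits with a library left out.

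In kidney, 2 of 12 HIF-linked mitochondrial genes fell, both mitophagy receptors: Bnip3 from 64.4 ± 6.26 to 53.8 ± 2.28 CPM (-0.26, adjusted p = 0.0271) and Bnip3l from 114 ± 4.18 to 99.4 ± 4.73 (-0.20, adjusted p = 0.0290). Ndufa4l2, the isoform of Ndufa4 tied to HIF, was at 6.22 ± 0.458 and 7.18 ± 0.607 CPM (0.21, adjusted p = 0.230). With 1 library left out, Bnip3 was called in 5 of 8 fits and Bnip3l in 4. Etfdh, which feeds electrons from fatty acid oxidation into ubiquinone, was the 1 of 13 electron carrier genes called (-0.23, adjusted p = 0.0391), and Pcx, pyruvate carboxylase, the 1 of 19 in the tricarboxylic acid cycle list (-0.26, adjusted p = 0.0112). Etfdh stayed called in 4 and Pcx in 7 of the 8 fits. None of 28 genes for expressing the mitochondrial genome and none of 77 mitochondrial ribosome genes was called, of which 66 of the latter were positive with a median of 0.07. In ovary 0 genes of the 7 lists were called. Among the smallest p there, Pprc1, a coactivator of respiratory genes, was at 75.2 ± 6.42 and 95.4 ± 5.22 CPM (0.34, adjusted p = 0.0937).

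Some markers of kidney cell types also differed between the groups, against the same shares of all genes called, 1.83% higher and 3.7% lower. Of 13 proximal tubule markers, 1 was positive and 3 were called lower (Cubn, Slc13a3 and Acsm2), their sum being 26374 to 29028 CPM with vehicle and 24771 to 27007 with PT-2385. Pvalb of the distal tubule and Myh11 of smooth muscle were called higher, and Csf1r of macrophages lower. Of the 8 thick limb and distal tubule markers, Pvalb included, 4 were positive. Their sum was 7033 to 8028 CPM with vehicle and 6687 to 7559 with PT-2385. Positive differences were seen for 3 of 4 smooth muscle markers and 0 of 7 macrophage markers. With 1 library left out, Slc13a3 was called in all 8 fits, Acsm2 in 6, Csf1r in 5, Cubn in 4, Pvalb in 3 and Myh11 in 2. The 5 endothelial markers were all positive, none called, with sums of 346 to 385 CPM and 379 to 416 CPM. The part of cell composition in the kidney differences was not tested.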

How the data were processed

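The deposited values are raw counts of read pairs per gene, 1 table per library. Per the file headers, the authors counted pairs on exons by gene with featureCounts 2.0.6 and GENCODE mouse annotation 27, with no strand or multiple-mapping option recorded. STAR, FastQC and GRCm39 are named in the submitters' processing notes. Their versions and settings are not given in the sources used here. Symbols came from GENCODE M21 by identifier (94.08% of 55359 matched). Depth was 12689770 to 43295974 assigned pairs per library.

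Each organ (4 PT-2385 against 4 vehicle libraries) was fitted across all genes passing filterByExpr (at least 10 counts) with edgeR 4.0.16 in R 4.3.3: TMM scaling, robust quasi-likelihood test, Benjamini-Hochberg adjustment over all genes, called at an adjusted p under 0.05. The interaction used 16 libraries. The SE of a log2 fold change was taken as its size divided by the square root of the F statistic. Per-library member values are TMM-scaled CPM, while marker sums, shares and the per-library values of Ppara and Ucp1 use plain assigned pairs. Alternatives were DESeq2 1.42.0, limma-voom (limma 3.58.1), other scalings and filters, 1 fit of all libraries, a replicate block and leaving out libraries. The fit was run on simulated counts drawn independently with the same dispersion for every gene. Such counts lack the shared variation of these libraries, so the run does not show how stable the calls are. Exon lengths and shared bases came from the files' coordinates, and shared 100-base words from GENCODE M21 transcripts. Promoter sequences came from RefSeq (GRCm38.p6), whose coordinates were not joined to those of the files.

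Named genes were the 13 mitochondrial mRNAs, called members or the 2 with the smallest p in each complex, tissue isoforms, the highest and lowest nuclear member of each complex, the 6 members with the smallest interaction p, and up to 3 genes per list. Members and lists were chosen with earlier results of these data known.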

Additional observations from a re-analysis of the deposited data

Results flagged for a closer look

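Each group of 4 libraries was checked for a single library far from the other 3, by Dixon's ratio at its 95% critical value. Of 202 groups, 13 had such a library, and chance gives about 1 in 20. Values are TMM-scaled CPM. In ovary PT-2385 1, Cox7a2 was at 94.7 (next 77.85), Ndufb7 at 42.86 (36.28), Uqcrh at 144.3 (128.8), mt-Co1 at 14860 (12950) and mt-Nd2 at 3045 (2648), all above the rest of the group, and Cox6a2 was below it at 0.4723 (0.617). That library had 17245769 pairs, the smallest ovary depth. In ovary PT-2385 2, Atp5s was high at 4.511 (3.109) and mt-Co3 low at 33.08 (39.97). In ovary vehicle 2, Uqcrb was high at 95.84 (79.93). In kidney vehicle 1, Atp5b was high at 2458 (2317), while mt-Atp6 and mt-Co3 were low at 94.84 (119.3) and 89.43 (116.2). In kidney PT-2385 2, the shallowest library with 12689770 pairs, mt-Atp6 was high at 144.5 (110.7). mt-Atp6 and mt-Co3 are among the 6 mitochondrial mRNAs counted far below mt-Co1. The part of depth in these values was not tested.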

How the results depend on the processing

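No member was called in the interaction under any alternative but 1, leaving out ovary vehicle 3 (0 to 1 over single libraries), and none in ovary except without that library (0 to 1; 1 also without both libraries of deviating file name). The 6 kidney calls became 11 with DESeq2, 30 with no filter, 0 with 16 libraries in 1 fit, 0 without both deviating libraries and 0 to 29 with 1 library left out. Over all genes, 982 kidney calls became 1455, 1761, 286 and 240 in the same order, and 240 to 1370 with 1 library left out. Genes called in the pathway lists, 9 in kidney, became 16 with DESeq2, 20 with no filter, 4 in the joint fit, 2 without both deviating libraries and 2 to 25 with 1 left out, and 0 in ovary became 1 with DESeq2, 1 with no filter, 6 without both deviating libraries and 0 to 6. Cell type markers called, 6 in kidney, became 13, 17 and 1 (DESeq2, no filter, joint fit) and 1 to 9 with 1 left out, and 0 in ovary became 3, 3 and 2, 5 without both deviating libraries and 0 to 5. The cause was not tested.

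With 1 library left out, the median log2 change ran from 0.0145 to 0.139 for mitochondrial and 0.0910 to 0.170 for nuclear members in kidney, from -0.209 to 0.0864 and -0.0304 to 0.0373 in ovary, and the mitochondrial share difference from 0.753 to 1.31 points in kidney and -0.610 to 0.0609 in ovary. Counting each named gene under each alternative (members, and in kidney the called list genes and markers too), 464 in kidney, 305 in ovary and 323 in the interaction kept direction and side of the threshold, 110 kidney calls were lost (list genes and markers included), 13 and 2 were gained, and 6, 15 and 2 changed sign. With 1 library left out, the log2 change crossed 0 in ovary for mt-Co1 (-0.122 to 0.0864), mt-Cytb (-0.209 to 0.103), mt-Nd2 (-0.315 to 0.0612), mt-Nd4 (-0.174 to 0.0889), mt-Nd6 (-0.250 to 0.0235), Uqcr10 (-0.00417 to 0.0998) and Uqcr11 (-0.0331 to 0.117), in kidney for Cox8b (-0.00944 to 1.30), mt-Nd5 (-0.0327 to 0.0112) and mt-Nd6 (-0.0775 to 0.0596), and in the interaction for Sdhc (-0.0712 to 0.00880). Ovary mt-Co1 was at 0.00445 with limma-voom, and kidney mt-Nd6 at -0.00708 in the joint fit. Without both deviating libraries, ovary Uqcr10 was at -0.00417, Uqcr11 at -0.0331 and the interaction of Sdhc at 0.00545.

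Whether a replicate number pairs these libraries is not known. Correlations of same-numbered deviations ran from -0.22 to 0.31 in ovary and -0.07 to 0.08 in kidney. With the replicate block, 7 members were called in kidney, 0 in ovary and 0 in the interaction. Ovary list genes called rose to 1 and markers to 3, and ovary mt-Co1 was at 0.001806. Over all genes, the block raised the number called from 9 to 395 in ovary, 982 to 1274 in kidney and 38 to 263 in the interaction. Vehicle replicates 2 and 3 correlated best with the treated library of their own number in each organ, vehicle 1 with number 4 and vehicle 4 with number 1. Depth limits Cox6a2 in kidney, called on 19 to 127 pairs, and Cox7b2, Cox8c and ovary Cox8b were under the count filter of the fits within an organ; with no filter none of them was called in ovary.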
